A study of Mus musculus with 1617 samples.

Results

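Brain macrophages of the mouse embryo were compared at an embryonic age of E16.5 days by whether a cell held Mki67 RNA. The cells, labelled as microglia of E16.5 whole brain, were chosen by their own Mki67 level. Among the E16.5 cells 28 are Mki67-positive, with 1 TPM or more, and 65 are Mki67-zero, with exactly 0 TPM, while 33 further E16.5 cells lie between these levels and belong to neither group. TPM is a share of a cell's transcripts, corrected for transcript length, on one common total for every cell. The 1617 cells of the series, from E12.5 to adult, were sorted as CD45+ F4/80+ CD11b+ Ly6C- macrophages. They were captured on Fluidigm C1 chips, and each GEO sample is 1 cell. The E16.5 cells carry only an age and a tissue: no genotype, treatment, strain or animal is named, so cells of 1 or several embryos cannot be told apart. Both groups come from these same cells and share age, tissue and sort. With no animal named they are 1 sample, and every difference below describes these cells and carries no p-value.

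Ki-67, the protein encoded by Mki67, coats the chromosomes of dividing cells and is scarce in resting cells. Cycling cells switch on genes in waves: E2F factors act on genes for DNA replication as cells leave G1, and later a complex with B-MYB and FOXM1 acts on genes for mitosis through a short element, the cell cycle homology region, often beside CCAAT boxes bound by NF-Y. Macrophages of the embryonic brain descend from early yolk sac and related precursors and multiply in place. They include microglia of the tissue itself, with Sall1 and P2ry12 as marker genes, and border-associated macrophages of the meninges, choroid plexus and vessels, with F13a1, Lyve1 and Mrc1.

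Mki67 chose the groups, so its values are a description. Positive cells held from 1.42 to 1081 TPM of Mki67, with a median of 98.6 TPM. The 3 cells just inside the limit held 2.52, 1.73 and 1.42 TPM, and the 3 just outside held 0.89, 0.76 and 0.65 TPM. Among the positive cells, 8 held under 10 TPM, 7 held 10 to under 100 TPM and 13 held 100 TPM or more. The range spans nearly 3 powers of 10, and the lowest positive cells lie close to the cells left out.

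Both groups held the genes of the sorted population. Csf1r, the receptor for the macrophage growth factor CSF1, was at 1 TPM or more in 27 of 28 positive and 65 of 65 zero cells. Cx3cr1, a chemokine receptor of microglia, was there in 28 of 28 and 65 of 65. Ptprc, which encodes CD45, was there in 27 of 28 and 59 of 65, and Emr1, which encodes F4/80, in 28 of 28 and 59 of 65. Ly6c1 was at 0 in every cell of both groups, and Ly6c2 reached 1 TPM in 2 positive and 2 zero cells, with a highest value of 4.44 TPM. Positive cells held more genes: the number at 1 TPM or more ran from 1547 to 6994, median 5406, in positive cells and from 380 to 7068, median 4681, in zero cells. Reads per cell are unknown, since TPM keeps no record of depth, and the part that the number of genes per cell has in each result was not tested beyond the restricted values given below.

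The label "cycling" was checked against other genes of the cell cycle. The promoters of a few of these genes are shown first, because the promoters of the 2 waves of the cycle hold short motifs at different shares. Each sequence holds the 250 bases before the RefSeq start, read in the direction of the gene on GRCm38.p6. Capitals mark the box CCAAT, the usual cell cycle homology region TTTGAA with its variant TTTAAA, and an E2F core (TTGGCGC or TTGCCGC or TTCGCGC or TTCCCGC), each on either strand and with overlaps allowed.
Cdk1 (chr10:69352913-69353162, minus strand): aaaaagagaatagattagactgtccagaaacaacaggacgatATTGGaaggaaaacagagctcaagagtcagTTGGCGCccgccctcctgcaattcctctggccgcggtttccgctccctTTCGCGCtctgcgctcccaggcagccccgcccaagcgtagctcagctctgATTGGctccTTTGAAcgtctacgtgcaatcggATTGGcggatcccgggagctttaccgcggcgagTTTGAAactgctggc
Top2a (chr11:99024190-99024439, minus strand): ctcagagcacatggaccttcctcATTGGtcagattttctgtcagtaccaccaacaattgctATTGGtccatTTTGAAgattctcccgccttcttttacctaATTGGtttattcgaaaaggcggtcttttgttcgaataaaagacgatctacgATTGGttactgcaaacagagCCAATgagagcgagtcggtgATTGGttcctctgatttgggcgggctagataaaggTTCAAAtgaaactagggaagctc
Ccnb1 (chr13:100786487-100786736, minus strand): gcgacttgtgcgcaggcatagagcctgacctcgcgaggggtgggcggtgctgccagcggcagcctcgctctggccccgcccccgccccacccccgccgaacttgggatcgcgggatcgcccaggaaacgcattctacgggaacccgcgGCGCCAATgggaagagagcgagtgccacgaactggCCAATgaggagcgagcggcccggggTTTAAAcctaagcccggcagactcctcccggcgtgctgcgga
Mcm5 (chr8:75109259-75109508, plus strand): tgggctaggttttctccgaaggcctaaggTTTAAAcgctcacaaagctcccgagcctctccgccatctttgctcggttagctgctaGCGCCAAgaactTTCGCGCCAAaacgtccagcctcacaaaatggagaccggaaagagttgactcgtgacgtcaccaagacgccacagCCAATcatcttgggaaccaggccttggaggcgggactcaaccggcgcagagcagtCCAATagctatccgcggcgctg
Rrm2 (chr12:24708004-24708253, plus strand): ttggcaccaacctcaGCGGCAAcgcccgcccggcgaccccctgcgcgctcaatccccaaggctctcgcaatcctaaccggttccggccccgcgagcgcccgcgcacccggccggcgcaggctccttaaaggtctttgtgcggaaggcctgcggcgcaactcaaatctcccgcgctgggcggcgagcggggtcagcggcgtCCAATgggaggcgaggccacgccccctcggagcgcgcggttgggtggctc

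The mitotic promoters held CCAAT boxes near a homology region. Cdk1 held TTTGAA 71 and 15 bases before the start, with ATTGG, which is CCAAT on the other strand, 80 and 48 bases before it. It also held 2 E2F cores farther upstream. Top2a held TTTGAA on the other strand 23 bases before the start and 6 CCAAT boxes upstream of that position. Ccnb1 held TTTAAA 42 bases before the start and no TTTGAA, with CCAAT 99 and 67 bases before the start, the former overlapping an E2F core. The replication gene Mcm5 held 3 E2F cores in the upstream part of the window, a pair of them overlapping, TTTAAA near the upstream end and no TTTGAA, with CCAAT 77 and 22 bases before the start. Rrm2 held 1 E2F core near the upstream end and CCAAT 50 bases before the start.

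The same held over the lists of genes in windows of 300 bases, from 250 before to 50 after the start. TTTGAA was in 72.7% of 44 promoters of the G2 and mitosis genes (41 of 48 genes matched), in 10.8% of 37 promoters of the G1/S and replication genes (30 of 40 matched) and in 17.9% of all 32851 promoters. CCAAT and TTTGAA together were in 63.6%, 8.11% and 6.95%. An E2F core was in 18.2% of the mitotic, 59.5% of the replication and 9.57% of all promoters. These matches describe letters in a window, and binding was not measured.

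Positive cells held many more cell cycle genes than zero cells, and those of mitosis separated the groups further than those of replication. The G2 and mitosis list has 48 genes. Positive cells held from 4 to 45 of them at 1 TPM or more, median 25.5, and zero cells from 1 to 16, median 8. In 20 of 28 positive cells the number was above that of the highest zero cell, and in 8 it lay within the range of the zero cells. The G1/S and DNA replication list has 40 genes, of which positive cells held from 4 to 38, median 25, and zero cells from 2 to 30, median 9. Here 9 of 28 positive cells lay above the highest zero cell. Restricted to cells within the middle range of genes per cell of the positive group, which left 14 positive and 36 zero cells with medians of 5406 and 5205.5 genes, the medians were 24.5 against 9.5 mitotic and 26 against 10 replication genes.

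**Figure D1:**
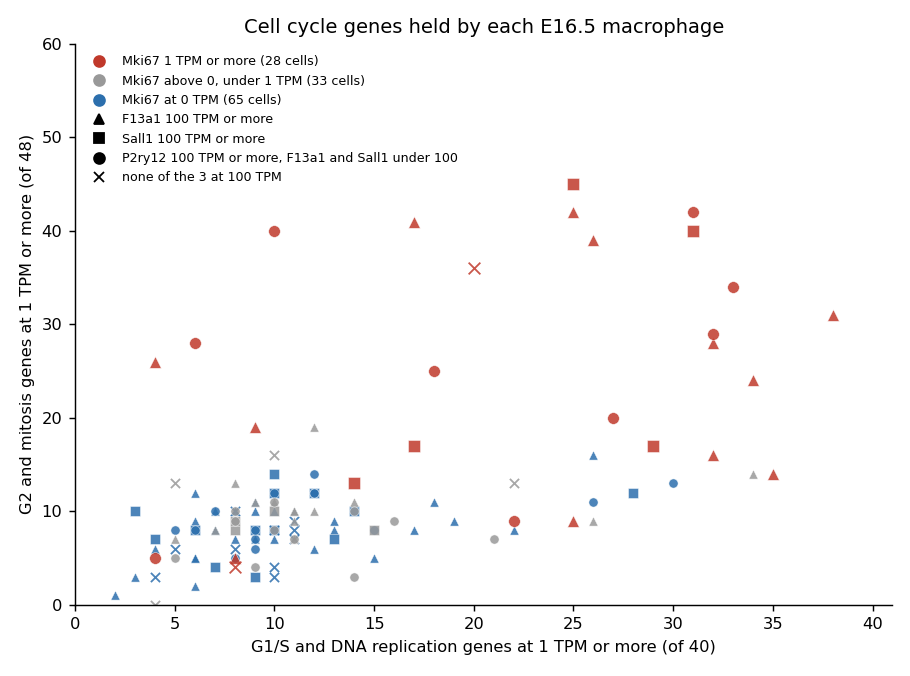
Number of G1/S and DNA replication genes (of 40, horizontal axis) and of G2 and mitosis genes (of 48, vertical axis) at 1 TPM or more in each E16.5 cell. Colour gives the Mki67 group and symbol the identity gene at 100 TPM or more. No zero cell holds more than 16 mitotic genes, and positive cells of all 4 symbols lie above that number.

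The positive cells were not alike. With 20 genes of a list as the mark, 12 of the 28 held 20 or more of both lists, 5 held 20 or more replication genes alone, 5 held 20 or more mitotic genes alone and 6 reached it in neither. Among zero cells 5 of 65 reached 20 replication genes and 0 of 65 reached 20 mitotic genes, and among the 33 cells between the groups these numbers were 4 and 0. Positive cells with Mki67 under 10 TPM held a median of 19.5 replication and 11 mitotic genes. Cells with 10 to under 100 TPM held 27 and 29, and cells with 100 TPM or more held 22 and 36. The numbers of mitotic genes were thus higher at higher Mki67, while the numbers of replication genes were not in that order. The median number of all genes at 1 TPM or more was 4953.5, 5345 and 6027 in these 3 sets.

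Gene by gene, the comparison used the log2 ratio of mean TPM in positive over zero cells, with 1 TPM added to each mean. Genes whose mean reached 5 TPM in at least 1 of the groups count as measured, and 1.5-fold made a gene higher or lower. Since a few cells can carry a mean, a stricter call asked for 1.5-fold in the mean of log2(TPM + 1) as well. Of 11575 measured genes 36.1% were higher and 29.9% lower, and by the stricter call 22.3% passed in either direction, 2142 higher and 444 lower. Their median log2 ratio was 0.11. The cell cycle members below are read beside these shares, and, as the groups were cut by a cell cycle gene of the same cells, as a description.

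Of the 47 measured G2 and mitosis genes 45 were higher and 0 lower, by both calls, with a median log2 ratio of 4.41. Gtse1 was not measured, and Cdca3 and Pttg1 were neither higher nor lower. Top2a, the topoisomerase that untangles DNA before chromosomes part, ran from 0 to 2353 TPM, median 220.7, in positive cells and from 0 to 712 TPM, median 2.33, in zero cells. Its means were 521 and 24.7 TPM, a log2 ratio of 4.34. At 100 TPM or more it was in 16 of 28 positive and 3 of 65 zero cells. Its promoter is the one above with 6 CCAAT boxes.

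Cdk1, the kinase that starts mitosis, ran from 0 to 1260 TPM, median 213.4, in positive cells and from 0 to 2826 TPM, median 0, in zero cells. It reached 100 TPM in 16 of 28 positive and 9 of 65 zero cells, so the groups overlapped more than for Top2a. The means were 341 and 140.6 TPM, with a log2 ratio of 1.27, and the difference of mean log2 values was 3.97. Rescaling each cell by a median-ratio factor gave a log2 ratio of 0.66. Ccnb1, the cyclin B1 partner of Cdk1, was at 0 to 1103 TPM in positive cells and 0 to 46.2 TPM in zero cells, with means of 133.9 and 0.852 TPM. Its median was 0.95 TPM even in positive cells, since 14 of the 28 held it at 1 TPM or more, against 5 of 65 zero cells.

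Ccna2, cyclin A2, was at 97.3 against 0.577 TPM in mean and reached 100 TPM in 6 positive and 0 zero cells. Birc5, the survivin subunit of the chromosomal passenger complex, was at 278 against 10.7 TPM, and at 100 TPM or more in 14 of 28 positive cells and 1 of 65 zero cells. Bub1, a kinase of the spindle checkpoint, was at 116.8 against 0.0692 TPM, and Pbk, a mitotic kinase, at 236.7 against 0.977 TPM. Neither gene reached 100 TPM in any zero cell.

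**Figure D2:**
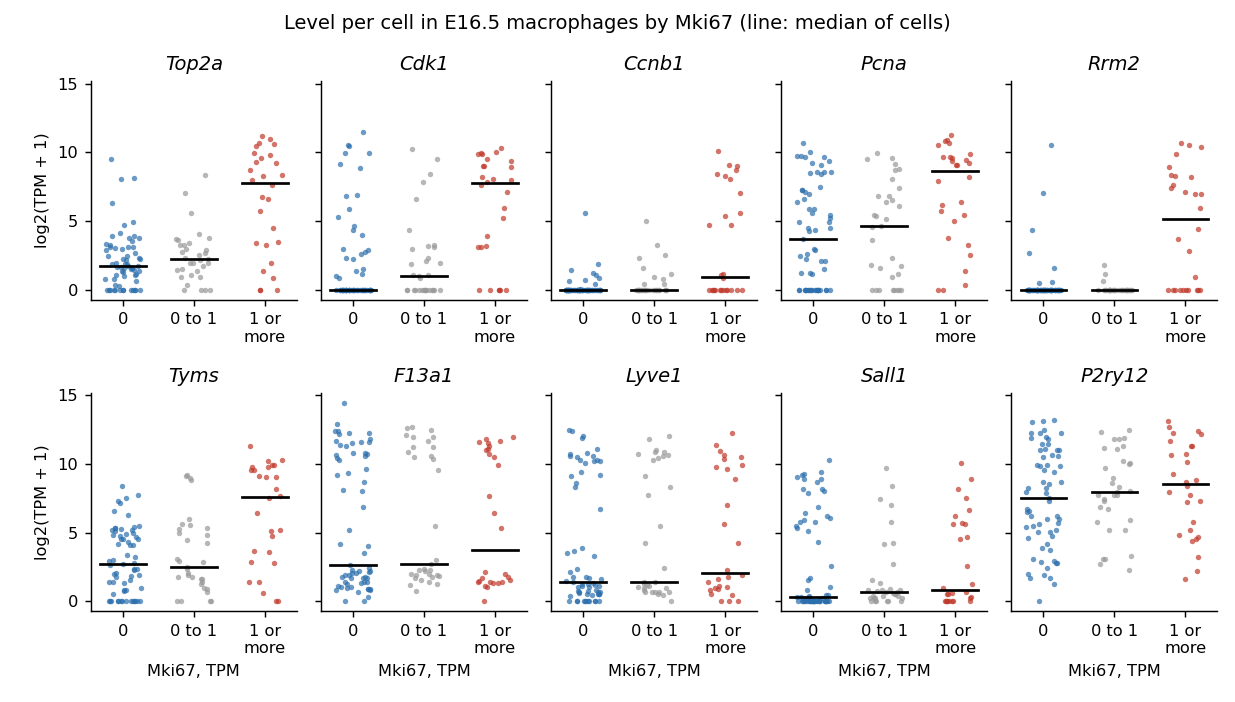
Level of 10 genes in each E16.5 cell as log2(TPM + 1), by Mki67 at 0 TPM (65 cells), above 0 and under 1 TPM (33 cells) and at 1 TPM or more (28 cells). Dots are cells and lines medians of cells. The 6 cell cycle genes lie higher in the positive cells, while F13a1, Lyve1, Sall1 and P2ry12 span nearly the same range in all 3 sets.

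Of the 40 G1/S and replication genes 39 were higher and 0 lower, 38 by the stricter call, with a median log2 ratio of 2.56. Pcna, the sliding clamp of DNA polymerase, ran from 0 to 2462 TPM, median 413, in positive cells and from 0 to 1603 TPM, median 12, in zero cells. It reached 100 TPM in 16 of 28 and 19 of 65 cells, and its means were 586 and 168.2 TPM, a log2 ratio of 1.80. Pcna was thus shared by a good part of the zero cells.

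Rrm2, the regulated subunit of ribonucleotide reductase, which makes the building blocks of DNA, was held by fewer zero cells. It was at 1 TPM or more in 17 of 28 positive and 5 of 65 zero cells, with means of 274 and 24.6 TPM and a log2 ratio of 3.43, which was 5.99 without the highest cell of each group and 1.32 after rescaling. Tyms, thymidylate synthase, had means of 448 and 28.8 TPM and medians of 193.3 and 5.65 TPM. Mcm5, a subunit of the replicative helicase, had means of 163.6 and 37.1 TPM and medians of 19.6 and 2.62 TPM. Cdt1, a factor that loads the helicase, and Cdc45, a part of the active helicase, were among the largest ratios of the list, at log2 5.31 and 4.81. Each was at 1 TPM or more in 9 of 28 positive cells, and Cdt1 had a log2 ratio of -0.47 when only cells with Mki67 at 100 TPM or more were taken as positive. The difference in Cdc45 lay in cells with F13a1 under 100 TPM, at 142.7 against 0.442 TPM. In cells with F13a1 at 100 TPM or more Cdc45 was at 3.55 against 4.05 TPM, a log2 ratio of -0.15.

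Genes of chromatin and spindle followed, with 18 of 20 higher, 17 of them by the stricter call, 0 lower and a median log2 ratio of 1.84. Stmn1, which regulates microtubules, ran to 4068 TPM, median 1416, in positive cells and to 1700 TPM, median 18.8, in zero cells. It reached 100 TPM in 24 of 28 positive and 26 of 65 zero cells. Asf1b, a histone chaperone, was at 140.999 against 7.93 TPM in mean, and Tubb4b, a tubulin, at 168.4 against 11.5 TPM. The histone gene Hist1h2ap was at 101.5 against 17.04 TPM and was seen at 1 TPM or more in 9 of 28 positive and 3 of 65 zero cells. Its log2 ratio of 2.51 was 0.60 after rescaling. Copies of histone genes are alike in sequence, so single members are uncertain.

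The regulators of entry into the cycle did not move as a block. Of 29 listed cyclin D, CDK, inhibitor and E2F or MYB family genes 22 were measured, with a median log2 ratio of 0.35. Of these 9 were higher and 4 lower, beside 36.1% and 29.9% of all measured genes. By the stricter call 7 were higher and 1 lower, beside 2142 and 444 of 11575 genes. The 7 were Foxm1, Mybl2 and Lin54, which encode parts of the factors that act on mitotic genes, the E2F repressors E2f7 and E2f8, the pocket protein gene Rbl1, and Trp53. Foxm1 was at 25.7 against 0.300 TPM and Mybl2, which encodes B-MYB, at 26.2 against 0.167 TPM. Btg1, an antiproliferative gene, was the 1 lower gene, at 294 against 672 TPM. Its median was 183.9 TPM in positive and 419 TPM in zero cells. Its relative Btg2 was at 544 against 820 TPM.

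The classic brakes and the D cyclin had no steady direction. Cdkn1a, which encodes the inhibitor p21, was at 209.8 against 163.8 TPM, a log2 ratio of 0.36 that was -0.03 without the highest cells, and reached 100 TPM in 5 of 28 and 11 of 65 cells. Its log2 ratio was 1.49 within cells with F13a1 at 100 TPM or more and -1.52 in the other cells. The positive cell with the most Cdkn1a, at 3058 TPM, was among the former and held 52.1% of the sum over all positive cells. Ratios of the classes without the highest cells were not computed. Cdkn1b, which encodes p27, was low in both groups, at 13 and 15.1 TPM, with ratios of -1.54 and 0.68 in these classes. The difference between classes was not tested. Ccnd1, cyclin D1, was at 68.8 against 34.4 TPM, a log2 ratio of 0.98, but the sign turned to -0.26 without the highest cell of each group and to -0.32 in mean log2. Cdk6, the partner of the D cyclins, was at 198.3 against 149.4 TPM.

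Among the genes that were held widely enough to be named, the 12 largest ratios were mostly of mitosis. After Klhdc4 these were Knstrn (a spindle and kinetochore protein), Pbk, Bub1, Ccnf (cyclin F, a part of a ubiquitin ligase), Cenpk (a centromere protein), Ccnb1, Ccna2, Kif20a (a kinesin of cell division), Kif22 (a kinesin that binds chromosomes), Cks1b (a subunit of CDK complexes) and Rad18 (a ubiquitin ligase of DNA repair). Their log2 ratios ran from 6.92 for Knstrn to 5.77 for Rad18. Cks1b was the most widely held of these, at 1 TPM or more in 18 of 28 positive and 9 of 65 zero cells, with means of 271 and 3.61 TPM. Klhdc4 had a log2 ratio of 11.95 that rested on 1 positive cell with 175932 TPM, and without the highest cell of each group it was 3.61.

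**Figure D3:**
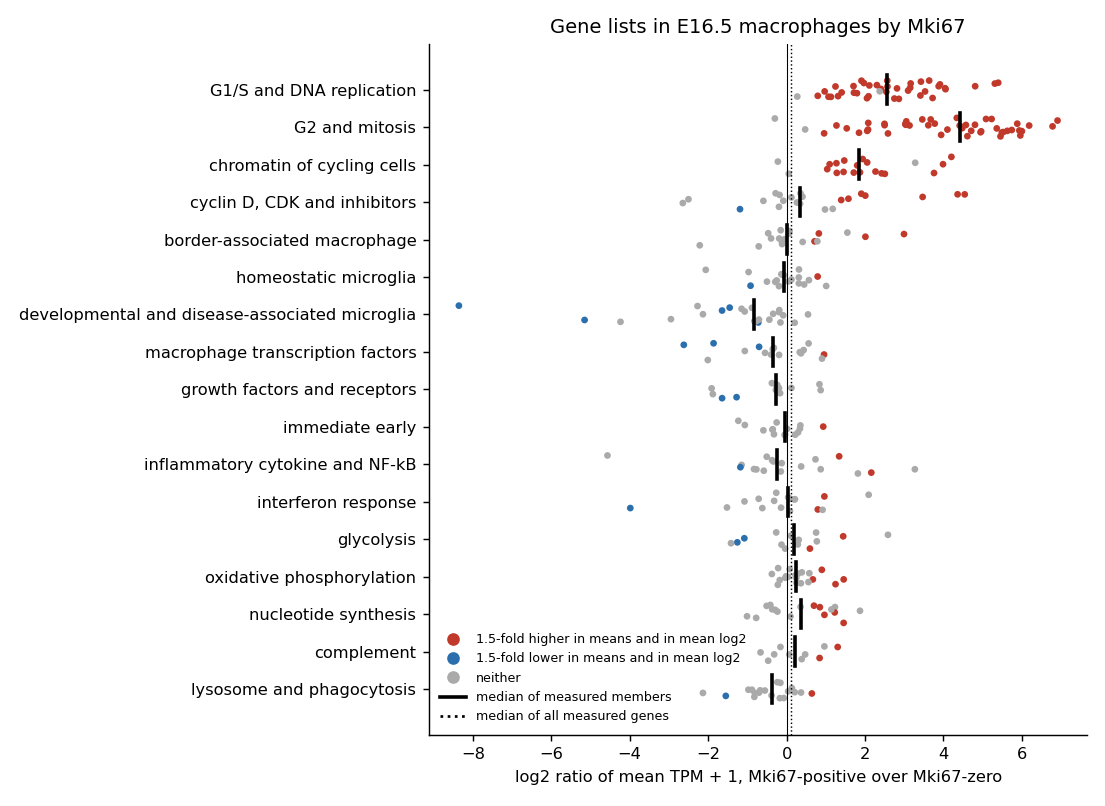
Log2 ratio of mean TPM in Mki67-positive over Mki67-zero E16.5 cells for the measured members of 17 gene lists, with the median of each list as a bar and that of all 11575 measured genes (0.11) as a dotted line. The replication, mitosis and chromatin lists lie to the right, with medians of 2.56, 4.41 and 1.84, and the developmental and disease-associated microglia list lies to the left, at -0.82.

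Mki67-positive cells carried F13a1, Lyve1, Sall1 or P2ry12, as did zero cells. At 100 TPM the share with F13a1 was nearly the same in both groups. For Sall1 the share was lower in the positive cells, and for Lyve1 and P2ry12 higher, with wide intervals. A level of 100 TPM was used for this, because at 1 TPM F13a1 does not tell the cells apart: among 22 cells with Sall1 at 100 TPM or more, 17 also held F13a1 at 1 TPM or more, but none above 3.89 TPM. No cell held F13a1 and Sall1 together at 100 TPM. Of the 54 cells with F13a1 at 100 TPM or more, 0 reached 1 TPM of Sall1, with a highest value of 0.96 TPM. F13a1 and Sall1 thus mark 2 sets of cells at this age, and both sets include Mki67-positive cells. P2ry12 does not part them in this way. It was at 100 TPM or more in 23 of the 54 cells with F13a1 at that level, and in 5 of the 12 positive ones.

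F13a1, a coagulation factor subunit made by tissue macrophages, was at 100 TPM or more in 12 of 28 positive cells (42.9%, exact 95% interval 24.5 to 62.8) and 28 of 65 zero cells (43.1%, 30.8 to 55.96). Its values ran from 0 to 3896 TPM, median 21.6, in positive and from 0 to 22496 TPM, median 5.28, in zero cells. Mean levels were 1006 and 1393 TPM, a log2 ratio of -0.47, while the difference of mean log2 values was 0.14, so the 2 measures differ in sign. The same rescaling moved the ratio to -2.29. The shares of cells, not the means, are the steadier description of this gene.

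Lyve1, a hyaluronan receptor, was at 100 TPM or more in 11 of 28 positive cells (39.3%, 21.5 to 59.4) and 21 of 65 zero cells (32.3%, 21.2 to 45.1), with means of 616 and 585 TPM. Sall1, a transcription factor of microglia, was there in 5 of 28 (17.9%, 6.06 to 36.9) and 13 of 65 (20%, 11.1 to 31.8), with means of 85.3 and 104.5 TPM. Its log2 ratio of -0.29 became 0.75 within the middle range of genes per cell, so no direction can be given. P2ry12, a receptor for nucleotides on microglia, was there in 19 of 28 (67.9%, 47.6 to 84.1) and 35 of 65 (53.8%, 41.03 to 66.3), with means of 1638 and 1320 TPM. The 19 include 5 cells with F13a1 at 100 TPM or more. Each pair of intervals overlaps widely, and the intervals cover counting error over cells only.

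At the lower level of 1 TPM the shares were 96.4% and 84.6% for F13a1, 71.4% and 63.1% for Lyve1, 46.4% and 41.5% for Sall1 and 100% and 98.5% for P2ry12, positive cells first. All 4 were higher in the positive cells, which also held more genes.

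Read the other way, every class of cells held Mki67-positive members. It was 22.2% in all E16.5 cells (exact 95% interval 15.3 to 30.5), 12 of 54 in cells with F13a1 at 100 TPM or more (22.2%, 12.04 to 35.6), 5 of 22 in cells with Sall1 at that level (22.7%, 7.82 to 45.4) and 19 of 78 in cells with P2ry12 at that level (24.4%, 15.3 to 35.4). Cells with F13a1 and P2ry12 together numbered 23, of which 5 were positive. In the 16 cells with none of F13a1, Sall1 and P2ry12 at 100 TPM 2 were positive (interval 1.55% to 38.3%), and these cells held a median of 4114.5 genes against 4857.5 over all cells. With 100 TPM of Mki67 as the mark, the shares were 4 of 54 (7.41%, 2.06 to 17.9) for F13a1, 3 of 22 (13.6%, 2.91 to 34.9) for Sall1 and 8 of 55 (14.5%, 6.50 to 26.7) for P2ry12 without F13a1. No difference between classes was tested.

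**Figure D4:**
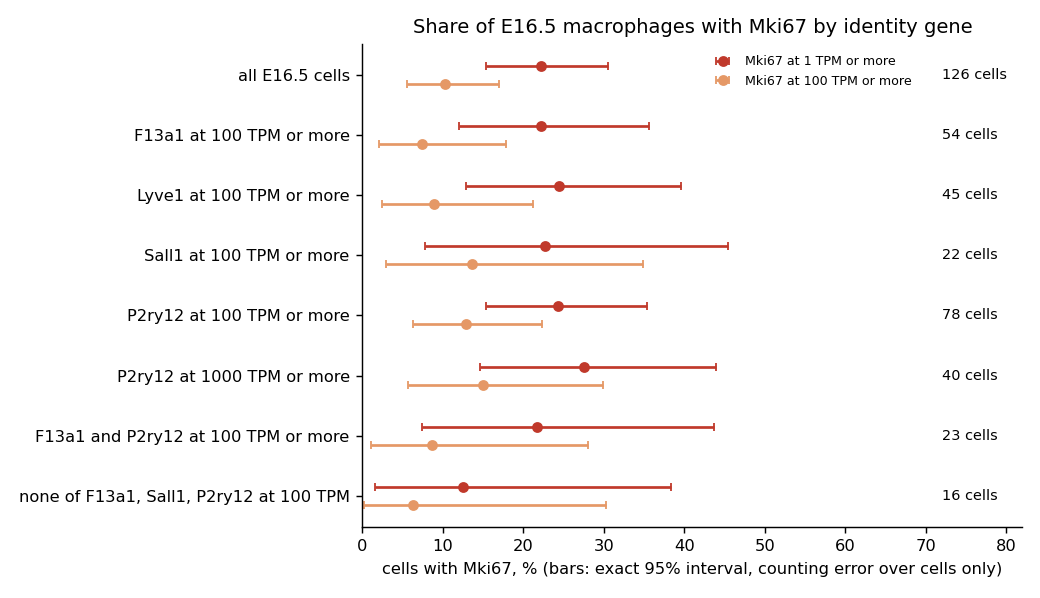
Share of E16.5 cells with Mki67 at 1 TPM or more and at 100 TPM or more, among all of them and among cells with each identity gene, with exact 95% intervals for counting error. The shares at 1 TPM run from 2 of 16 cells without any of these genes to 11 of 40 cells with P2ry12 at 1000 TPM or more, and the intervals overlap.

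The 28 positive cells fell into 12 with F13a1 at 100 TPM or more, 5 with Sall1, 9 with P2ry12 but neither of those, and 2 with none. Cells above the highest zero cell in mitotic genes were found in every set: 8 of 12, 4 of 5, 7 of 9 and 1 of 2. Single cells make the point plainly. A cell with 294.24 TPM of Sall1 and 4964.76 TPM of P2ry12 held 378.79 TPM of Mki67 with 31 replication and 40 mitotic genes. Another cell held 1469.13 TPM of F13a1, 1330.17 TPM of Lyve1, 212.19 TPM of P2ry12 and no Sall1. Its Mki67 was at 194.4 TPM, with 26 and 39 of these genes. The 3 cells with the highest Mki67, at 414.62 to 1080.97 TPM, held Sall1 at 21.95 to 50.96 TPM, P2ry12 at 1129.18 to 8743.2 TPM and F13a1 under 2 TPM.

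The cell cycle difference was there within each class. Among cells with F13a1 at 100 TPM or more, 12 positive against 28 zero, 40.1% of all measured genes were higher, and of the lists 42 of 46 measured mitotic genes and 36 of 39 replication genes, with medians of 4.34 and 2.98. Here 3 mitotic genes were lower. Among cells with F13a1 under 100 TPM, 16 positive against 37 zero, 37.2% of all measured genes were higher, and 43 of 46 mitotic and 32 of 36 replication genes, with medians of 4.51 and 2.51. Top2a was at 322 against 4.06 TPM in the F13a1 cells and at 670 against 40.4 TPM in the others. Median numbers of genes per cell were 5830.5 against 4848 in the first class and 5103.5 against 4593 in the second.

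Among the other identity genes most members did not differ. Of 18 border-associated macrophage genes 6 were higher and 2 lower, beside 36.1% and 29.9% of all measured genes. The list's median log2 ratio of 0.01 was moved to -0.14 by rescaling. By the stricter call 4 were higher and 0 lower, beside 2142 and 444 of 11575 genes. Mrc1, the mannose receptor, was 1 of the 4: it ran from 0.21 to 9107 TPM, median 566, in positive cells and from 0.34 to 6655 TPM, median 147.4, in zero cells. It reached 100 TPM in 21 of 28 (75%, 55.1 to 89.3) and 34 of 65 cells (52.3%, 39.5 to 64.9). Its log2 ratio was 0.71 over all cells, 0.64 within the F13a1 cells and 1.71 among the others. Fcgrt, the neonatal Fc receptor, was at 589 against 332 TPM. The others by the stricter call were Siglec1 and Cd209f, both lectins, at 18.3 against 3.80 and 169.5 against 20.4 TPM. The log2 ratio of Cd209f, 2.99, was 0.11 without the highest cell of each group. Folr2, a folate receptor, was at 232.8 against 174.9 TPM, and Ccl24, a chemokine, at 14.6 against 71.6 TPM.

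Among 19 homeostatic microglia genes, 2 higher and 3 lower ones were found, beside 36.1% and 29.9% of all measured genes. By the stricter call 1 was higher and 1 lower, and the list's median was -0.07. Crybb1, a crystallin gene expressed by early microglia, was higher at 264.8 against 152.4 TPM and reached 100 TPM in 13 of 28 and 14 of 65 cells. P2ry13, a nucleotide receptor related to P2ry12, was lower at 266.8 against 505 TPM, but its log2 ratio of -0.92 was 0.05 within the middle range of genes per cell. Tmem119, a membrane protein of maturing microglia, was at 74.9 against 147.7 TPM, and its log2 ratio of -0.97 likewise became 0.03 there. Siglech, a lectin, was at 474 against 671 TPM and Csf1r at 842 against 773 TPM.

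The lower side held genes that mark microglia of developing white matter and of disease. Of 23 such genes 15 were lower and 0 higher, with a median of -0.82, beside 29.9% of all measured genes lower, and by the stricter call 5 were lower, beside 444 of 11575 genes. Spp1, osteopontin, was the lowest of all named genes. It ran from 0 to 18.6 TPM in positive cells, with 0 of 28 cells at 100 TPM, and up to 51846 TPM in zero cells, with 7 of 65 at 100 TPM or more. Means were 1.72 and 891 TPM, a log2 ratio of -8.36, which was -5.52 without the highest cell of each group and -1.28 in mean log2. So the difference lay in a few zero cells, and the median was under 1 TPM in both groups.

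Igf1, the insulin-like growth factor, was at 87.5 against 276 TPM and reached 100 TPM in 6 of 28 and 21 of 65 cells. The other 3 by the stricter call were Clec7a, a receptor for glucans, at 0.642 against 57.4 TPM, Fabp5, which binds fatty acids, at 30.2 against 84.2 TPM, and Cd63, a protein of late endosomes, at 702 against 1158 TPM. The lysosomal proteases Ctsb and Ctsl were at 2193 against 3876 and 649 against 1199 TPM. The list's median was -0.21 in mean log2, beside a median of 0.27 for all measured genes. Within the F13a1 cells 6 of 17 measured members were lower, beside 33.7% of all measured genes, and among the other cells 17 of 23, beside 36.6%. Apoe, in the same list, was at 4631 against 3170 TPM and was not called.

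Lysosomal genes overlap with that list. Of 19 members 8 were lower, beside 29.9% of all measured genes, and 1 higher, with a median of -0.38, and by the stricter call 1 was lower and 1 higher. Ctsa, a lysosomal carboxypeptidase, was at 804 against 1580 TPM. Psap, the precursor of proteins that help break down sphingolipids, was the lower gene by the stricter call, at 31.6 against 94.5 TPM. It reached 100 TPM in 2 of 28 positive and 17 of 65 zero cells.

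Genes of metabolism were called at shares to be read beside the 36.1% higher and 29.9% lower of all measured genes. Of 17 measured genes of nucleotide synthesis 8 were higher and 2 lower, 5 and 0 by the stricter call, with a median of 0.36 that rescaling moved to -0.02. Impdh2, the rate-limiting enzyme of guanine nucleotide synthesis, was at 190.8 against 80.9 TPM and reached 100 TPM in 14 of 28 and 10 of 65 cells. Its log2 ratio of 1.23 was 0.32 after rescaling. Pfas, an enzyme of purine synthesis, was at 58.7 against 20.8 TPM, and Nme2, a nucleoside diphosphate kinase, at 233.1 against 118.9 TPM. Atic, a later enzyme of purine synthesis, was at 33.2 against 57.6 TPM.

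Of 21 genes of oxidative phosphorylation 4 were higher and 0 lower (list median 0.25). Cox5b, a subunit of cytochrome c oxidase, was at 147.7 against 53.2 TPM. Of 14 glycolytic genes 5 were higher and 3 lower. Their median of 0.20 became -0.22 on rescaling. Hk2, a hexokinase, was at 325 against 777 TPM and Aldoa, an aldolase, at 280 against 593 TPM. Gapdh was at 2636 against 969 TPM, and its log2 ratio of 1.44 was 0.61 without the highest cell of each group.

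Signalling lists held members on both sides, to be read beside the 36.1% higher and 29.9% lower of all measured genes. Immediate early genes, which respond to stimulation and to handling of cells, had 1 of 15 measured members higher and 3 lower, and their median was -0.05. Egr1 was at 653 against 834 TPM. Of 18 inflammatory and NF-kB genes 6 were higher and 5 lower, and of 17 interferon genes 4 were higher and 5 lower, with medians of -0.24 and 0.04. The first was 0.43 in mean log2. The second was -0.10 after rescaling, -0.63 without the highest cell of each group and -1.25 with Mki67 at 100 TPM or more. Within the F13a1 cells 10 of 16 interferon genes were higher and 4 lower, beside 40.1% and 33.7% of all measured genes. Among the other cells 3 of 17 were higher and 11 lower, beside 37.2% and 36.6%. That difference was not tested. The chemokine gene Ccl7 was at 228.7 against 519 TPM, and Ifitm3, an antiviral membrane protein, at 421 against 215.5 TPM.

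Of 13 measured growth factors and receptors 2 were higher and 4 lower (list median -0.27). Of 16 measured macrophage transcription factors 2 were higher and 5 lower (list median -0.34). The counts here are read beside the same 36.1% and 29.9% of all measured genes. Spi1, which encodes the macrophage factor PU.1, was at 39.3 against 64.5 TPM. Runx1, a factor of blood cell formation, was at 119.4 against 80.6 TPM. Of 10 complement genes 3 were higher and 1 lower, and their median of 0.23 became -0.24 on rescaling. C1qa was at 485 against 769 TPM, and Cfp, which encodes properdin, at 139.5 against 55.9 TPM.

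The 12 largest ratios on the lower side, by the same rule, belonged to sparse genes. Besides Spp1 these were Mrpl17, Lmf1, Plekho2, Camk1, Trmt1, Strada, Ccpg1, Zdhhc12, Bend6, Slc11a2 and Slc35f6. Camk1, a calcium-dependent kinase, was at 1 TPM or more in 5 of 28 positive and 28 of 65 zero cells, with means of 1.67 and 52.6 TPM. Trmt1, a methyltransferase of transfer RNA, reached 100 TPM in 0 of 28 and 12 of 65 cells. Mrpl17, of the mitochondrial ribosome, had a log2 ratio of -5.29 that was -1.85 without the highest cells, and that of Bend6 went from -3.94 to -0.33.

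Markers of other cell types ranged from absent to high in single cells. Of 9 neutrophil genes 9 were at 0 in all positive cells and 7 in all zero cells, with summed levels of 0 in every positive cell and of 0.95 TPM at most in zero cells. Of 8 erythroid genes 6 were at 0 in all positive and 4 in all zero cells, with sums of at most 15.4 and 224.3 TPM. The sum of 10 monocyte genes had a median of 11.7 TPM, from 0 to 81.8, in positive cells and of 6.87 TPM, from 0 to 1616, in zero cells, and 4 of the 10 were at 0 throughout each group. The sum of 12 neural genes ran from 0 to 9464 TPM, median 52.4, and from 0 to 8826 TPM, median 67, with 4 and 3 members at 0. Sums of 10 glial genes had medians of 1.54 and 1.5 TPM and highest values of 311 and 279 TPM, with 6 and 5 members at 0. Those of 10 endothelial and mural genes had medians of 1.24 and 1.49 TPM and highest values of 516 and 1643 TPM, with 6 and 2 members at 0.

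The lymphoid and dendritic list had medians of 504 and 181.7 TPM, with ranges of 4.23 to 2815 and 1.57 to 5505 TPM and 6 and 5 of 13 members at 0. Of its 2 measured members Siglech is also a microglial gene. The other, Cd79b, a signalling chain of the B cell receptor, was at 285 against 120.96 TPM and reached 100 TPM in 12 of 28 and 9 of 65 cells. The part of other cell types in any difference was not tested.

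The same split at 2 other ages used cells that had no part in the E16.5 groups. E12.5 whole brain had 62 positive and 63 zero cells, and the postnatal age P7 had 36 and 62 among cells of hippocampus, thalamus and visual cortex, joined here and read paired-end. P7 cells held a median of 2240 genes. Of all measured genes 34.6% were higher and 22.6% lower at E12.5, and 33.3% and 41.5% at P7. Mitotic genes were higher in 45 of 47 at E16.5, 47 of 48 at E12.5 and 43 of 48 at P7. Their medians were 4.41, 3.98 and 4.82. At all 3 ages 41 of these genes were higher. The share of all genes higher at all 3 ages was not counted.

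Replication genes were not alike across ages. They were higher in 39 of 40 at E16.5, 26 of 40 at E12.5 and 9 of 35 at P7, where 17 were lower. These P7 counts lie near the 33.3% higher and 41.5% lower of all genes measured at P7. The list's medians were 2.56, 1.07 and -0.50. At P7 the median in mean log2 was 0.05, so the 2 measures differ in sign there. Of the replication genes 6 were higher at all 3 ages, again with no share of all genes to set beside them. Pcna had log2 ratios of 1.80 at E16.5, 0.01 at E12.5 and -1.26 at P7, while Rrm2 had 3.43, 2.63 and 5.88. In mean log2 the differences for Pcna were 2.97, 0.85 and 0.79, so no direction can be given for Pcna at P7. Chromatin genes were higher in 18 of 20 at E16.5, 17 of 19 at E12.5 and 17 of 19 at P7. The difference between ages was not tested, and age, layout, region and genes per cell cannot be told apart between E16.5 and P7.

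**Figure D5:**
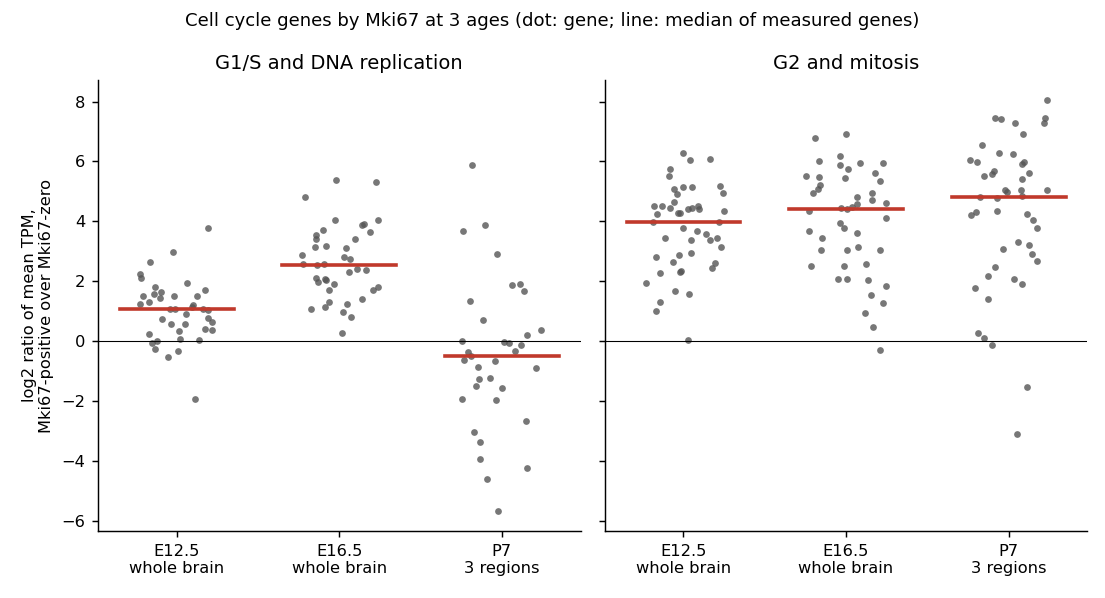
Log2 ratio of mean TPM in Mki67-positive over Mki67-zero cells for each measured gene of the G1/S and replication list (left) and the G2 and mitosis list (right) at E12.5, E16.5 and P7, with the median as a line. Mitotic genes lie mostly above 0 at all 3 ages, while the median of replication genes goes from 1.07 at E12.5 to 2.56 at E16.5 and -0.50 at P7.

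The share of Mki67-positive cells was 42.5% at E12.5 (62 cells, interval 34.3 to 50.9) against 22.2% at E16.5 (28 cells, 15.3 to 30.5), with median genes per cell of 4646 and 4857.5. At P7 the share was 32.7% (36 cells, 24.1 to 42.3), with a median of 2240 genes. At 100 TPM of Mki67 the shares were 15.8% (10.3 to 22.7) at E12.5, 10.3% (5.61 to 17) at E16.5 and 16.4% (9.996 to 24.6) at P7. At E12.5, of cells with F13a1 at 100 TPM or more, 32 of 76 were positive (42.1%, 30.9 to 53.98). Of the 33 named genes called lower at E16.5, 19 had a log2 ratio below 0 at E12.5 and 23 at P7. The median log2 ratio of all measured genes was 0.18 at E12.5 and -0.19 at P7, so most genes lay below 0 at P7. Spp1 had log2 ratios of -1.84 at E12.5 and -6.05 at P7, and Igf1 of -0.90 and -1.38. In mean log2 the differences were -0.55 and -1.71 for Spp1 and -1.44 and -0.02 for Igf1. Trmt1 had log2 ratios of 0.25 and 3.72, Mrpl17 of 0.34 and 1.78, and Plekho2 of 0.14 and 2.10.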

How the data were processed

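Per the labels' protocols, each macrophage was lysed and reverse-transcribed on a Fluidigm C1 chip and its library prepared by Nextera XT. The values used are TPM for 43280 gene names, as the authors deposited them in a single table. The submitters' processing notes name RSEM 1.2.19, Seurat and GRCm38. Aligner, annotation and cell filters: not given in the sources used here. Depth is unknown, the libraries carry no counts of molecules, and cells could not be thinned to equal depth. Doublets were not called, for want of molecule counts. Strand is not stated, so overlapping genes on opposite strands cannot be separated. Of the table's columns 382, those of E16.5, E12.5 and P7 cells, were used and 1235 were not; no 2 used columns were identical.

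Groups were cut by Mki67 at 1 TPM or more against exactly 0 TPM. The members, the 24 gene lists and the rules were chosen with earlier results of these data known. To be named, a gene had to reach 50 TPM in mean where it was higher, be present (1 TPM) in 25% of those cells, and keep its sign both in mean log2(TPM + 1) and with the top cell of each group removed. From such genes came the 12 most extreme on either side and at most 4 per list. Pseudogenes, Xist and genes that are Y-linked, predicted, mitochondrial or for ribosomal proteins were not ranked. A further 20 genes were named regardless of value. Other genes named with a count, a cell, an age or a sequence were chosen after their values were seen. Shares have exact Clopper-Pearson 95% intervals. Promoters are from RefSeq (GRCm38.p6). The computation of ratios was tested on simulated data. Figures were drawn with matplotlib 3.10.9, and values computed with scipy 1.17.1, pandas 2.3.3 and numpy 2.4.6 under Python 3.11.15. A few genes that met the rule are not reported here. Alternatives covered the pseudocount, the scale, the minimum level, the Mki67 limits, genes per cell, rescaling and the highest cells.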

Additional observations from a re-analysis of the deposited data

How the results depend on the processing

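With a mean of 20 TPM required, genes higher and lower numbered 2665 and 1888 at E16.5 (4184 and 3456 as reported), 2035 and 1186 at E12.5 (3790 and 2474) and 2034 and 2455 at P7 (3093 and 3856). By mean log2, genes lower numbered 510 at E16.5 and 291 at E12.5, and at P7 1351 were higher and 776 lower. Rescaling by median-ratio factors moved the median of all measured E16.5 genes from 0.11 to -0.11. It left the medians of the replication and mitotic lists at 2.32 and 3.84. With a pseudocount of 10 TPM the replication median was 1.85 and the mitotic median 2.58 at E16.5, 2.43 at E12.5 and 2.64 at P7. With 0.1 TPM the latter was 5.91 at P7. In mean log2 the mitotic medians were 2.47, 2.65 and 1.90, and against all E16.5 cells under 1 TPM the median was 3.74. Both lists kept medians above 0 at E16.5 under every alternative run.

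Within the F13a1 cells, a pseudocount of 10 TPM gave 1.95 for replication and 2.14 for mitosis, mean log2 gave 2.34 and 2.46, and 0.1 TPM gave 5.34 for mitosis. Among the other cells these were 1.81 and 2.94, 1.80 and 2.90, and 5.32. At 10 TPM the shares of positive and zero cells were 50% and 49.2% for F13a1 and 46.4% and 36.9% for Lyve1, and 81.5% of zero cells held P2ry12. At 100 TPM they were 42.9% and 43.1% for F13a1, 39.3% and 32.3% for Lyve1, 17.9% and 20% for Sall1, and 67.9% and 53.8% for P2ry12. The median numbers of genes per cell at 100 TPM were 10 and 1 for replication and 11.5 and 1 for mitosis, and at 10 TPM zero cells held 3 mitotic genes. The restriction of these numbers to the middle range of genes per cell was chosen after seeing the data.

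Of 97 named genes 24 changed sign in some alternative, among them 10 of the 79 that were called higher or lower. Within the middle range of genes per cell the log2 ratio was 0.44 for Bend6, 0.026 for Tmem119, 0.055 for P2ry13 and -1.47 for Ier2. With Mki67 at 100 TPM or more it was -0.47 for Cdt1, 0.0014 for Spi1, -0.10 for Ifitm3, -0.38 for Irf9 and -0.0098 for C5ar1. Ccnd1 had -0.32 in mean log2 and -0.26 without the highest cell of each group. The median of the 2 measured monocyte genes, -1.75, was 0.38 in mean log2 and 0.37 without the highest cells. The cause was not tested. No paired analysis was possible because no animal is named and the values come from no test. Leaving out replicates was not possible, since the cells are 1 sample.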
